A study of Mus musculus with 6 samples.

Results

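The genes described here are 10 genes of antigen processing and presentation by the major histocompatibility complex (MHC): Psmb8, Psmb9, Tap1, Tap2, Tapbp, H2-K1, H2-D1, B2m, Cd74 and Ifi30. They were chosen by gene symbol, and all 10 were found among the 21124 named genes of the array, each with exactly 1 transcript cluster, the unit for which the array gives a value. For a gene with several clusters the one with the highest mean would have been taken, which was not needed. The cells were B/CMBA.Ov, a line from the ovary of the BALB/c mouse strain. They received a synthetic copy (mimic) of miR-15a-3p or a negative control mimic, each at 20 nM with a lipid reagent, and total RNA was extracted after 48 h. There were 3 arrays for each mimic, and no untransfected cells are among the samples used here. The question addressed is what the microRNA, set against the control, does to transcript levels. The labels do not say whether the arrays of a group came from separate cultures, so the spread between them may be technical.

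MHC class I molecules show peptides from the inside of a cell to cytotoxic T cells. The peptides are cut by the proteasome, in which Psmb8 and Psmb9 can replace standard catalytic subunits to form the immunoproteasome. The transporter made of Tap1 and Tap2 pumps them into the endoplasmic reticulum, where tapasin (Tapbp) helps to load them onto a heavy chain (H2-K1 or H2-D1) paired with beta-2 microglobulin (B2m). In the class II pathway, used mainly by professional antigen presenting cells, Cd74 is the invariant chain that guards the class II groove, and Ifi30 is a thiol reductase that unfolds proteins in lysosomes. Interferons, gamma interferon above all, are known inducers of most of these genes.

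The microRNA given to the cells is shown first, since it is the only designed difference between the groups. The sequences are those of RefSeq on build GRCm38.p6, with the seed (bases 2 to 8), by which a microRNA finds its targets, in capitals. The mature miR-15a-3p (chr14:61632038-61632059, minus strand) is cut from the 3′ side of its hairpin precursor, and the better known partner miR-15a-5p (chr14:61632075-61632096, minus strand) from the 5′ side.
mmu-miR-15a-3p: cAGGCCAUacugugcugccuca
mmu-miR-15a-5p: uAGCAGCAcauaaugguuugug
The 2 arms have different seeds. Of the 1679 mature mouse microRNA names listed, 1 has the seed of miR-15a-3p, namely miR-15a-3p itself. Target sites in the transcripts of the antigen presentation genes were not analysed here.

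With the mimic, 4 of the 10 genes rose, Ifi30, Psmb9, Tap1 and Cd74, and none fell (0 of 10; 1, H2-K1, had an unadjusted limma p under 0.05 and was lower). The call is an adjusted p under 0.05 in a limma fit over all 21124 genes. In the same fit 6.09% of all genes were called higher and 5.63% lower, together 11.7%. The genes had been named with earlier results of these data known, so the count describes them and is no independent evidence. Among genes whose mean lay at least as high as the median gene, 7.27 on the log2 scale, to which 9 of the 10 belong, 9.45% were called higher and 9.77% lower. The median log2 fold change of the 10 was 0.10, beside 0.006 over all genes. The 3 mimic values all lay above, or all below, the 3 control values in 7 of the 10 genes, 5 above and 2 below. Over all genes the groups did not overlap in 29.6%, with 16.4% above and 13.2% below. The 10 genes did not move as a block: those of peptide cutting, transport and the class II pathway include the 4 that rose, while both heavy chains and B2m had lower means with the mimic.

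**Figure D1:**
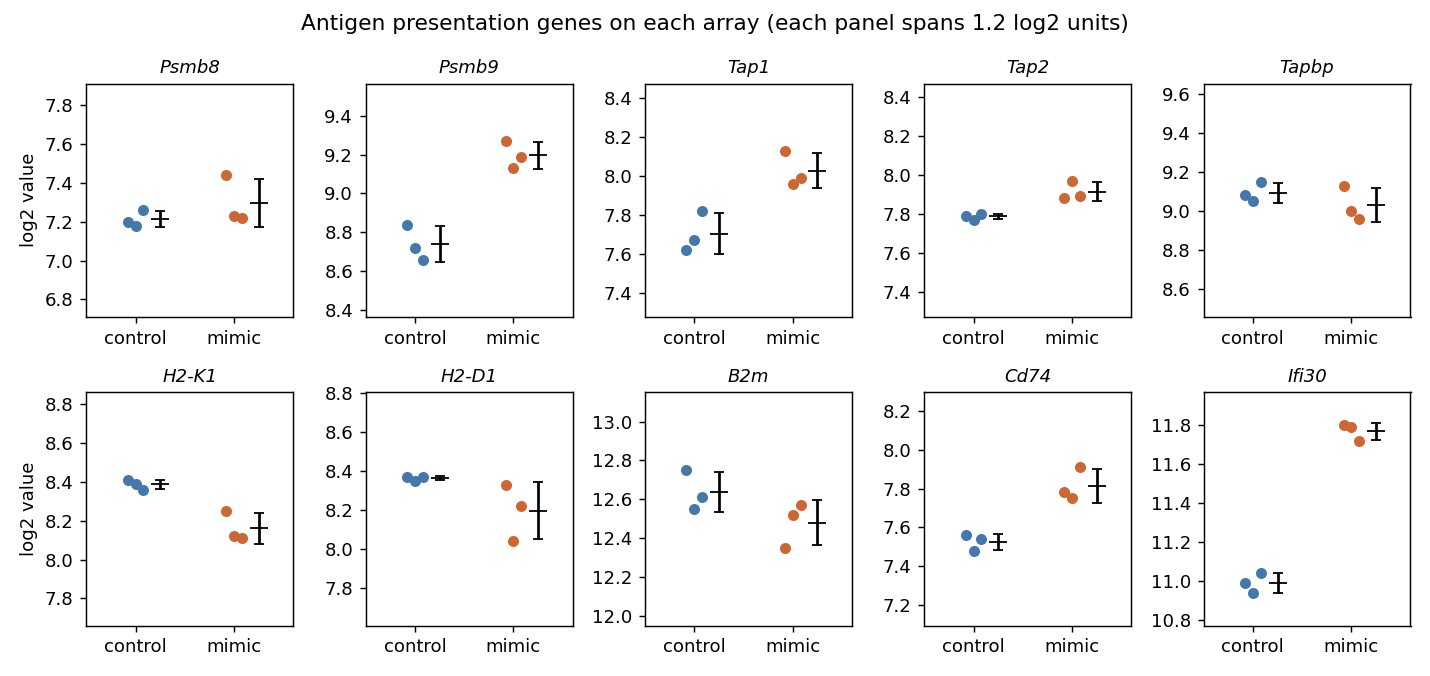
Log2 values (y axis) of the 10 antigen presentation genes on the 3 control and 3 mimic arrays, 1 panel a gene, each panel spanning the same number of log2 units; points are arrays, and the bar beside them is the mean with its SD. The mimic arrays lie above the control arrays for Psmb9, Tap1, Tap2, Cd74 and Ifi30 and below them for H2-K1 and, by a narrow gap, H2-D1.

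Of the proteasome subunits, Psmb9 rose and Psmb8 was not called. Psmb9, also known as LMP2, is the immunoproteasome's substitute for the standard subunit Psmb6. Its log2 values (transcript cluster 10450145) were 8.84, 8.72 and 8.66 on the control arrays and 9.27, 9.13 and 9.19 on the mimic arrays. Every mimic value lay above every control value. The mean went from 8.74 ± 0.0918 to 9.19 ± 0.0708 (SD, n = 3 arrays a group; limma adjusted p = 0.00335), a rise of 1.37-fold. Psmb8, or LMP7, which replaces Psmb5, had log2 values of 7.20, 7.18 and 7.26 with the control and 7.44, 7.23 and 7.22 with the mimic. The groups overlapped, since only mimic replicate 1 stood above all control arrays. Its log2 fold change was 0.08, with a 95% interval from -0.09 to 0.25 (limma adjusted p = 0.598), which leaves room for a small change in either direction.

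Exon-level probe sets gave the same contrast between these subunits. They are parts of the same clusters and no separate replicates, so this is no independent evidence. In the authors' deposited table, which compares the mimic with the control for 241419 probe sets, all 8 of the 8 probe sets of Psmb9 had a ratio above 1, from 1.10 to 1.96, and 4 had a p-value under 0.05. Over all probe sets in that table of the authors, 5.51% were higher and 6.44% lower at that p. Of the 7 probe sets of Psmb8 in the authors' deposited table, 3 had ratios above 1 and 4 below, and 0 passed that p-value in either direction.

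Of the peptide transporter, the Tap1 chain rose and the Tap2 chain did not pass the test. Tap1 (cluster 10444244) had log2 values of 7.62, 7.67 and 7.82 with the control and 8.13, 7.96 and 7.99 with the mimic. The lowest mimic value was above the highest control value, that of control replicate 3. The mean went from 7.70 ± 0.104 to 8.03 ± 0.0866 (SD of 3 arrays; limma adjusted p = 0.0234), a rise of 1.25-fold. The call was lost without control replicate 1, control replicate 2, mimic replicate 1 or mimic replicate 3, where the limma adjusted p was 0.0692, 0.0644, 0.0739 and 0.0548. In the authors' deposited table, 12 of its 13 probe sets had a ratio above 1, and 5 of them a p-value under 0.05.

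Tap2 (cluster 10444268) had log2 values of 7.79, 7.77 and 7.80 with the control and 7.88, 7.97 and 7.89 with the mimic. The groups did not overlap, but the difference was small: a log2 fold change of 0.13 with a 95% interval from -0.01 to 0.26 (limma adjusted p = 0.23). The 15 probe sets of Tap2 in the authors' deposited table were divided, 8 with ratios above 1 and 7 below, from 0.779 to 2.01, and 2 were higher with a p-value under 0.05. Tapbp, the loading chaperone (cluster 10444068), had log2 values from 9.05 to 9.15 with the control and from 8.96 to 9.13 with the mimic. These overlapped, with a log2 fold change of -0.07 and a 95% interval from -0.22 to 0.09 (limma adjusted p = 0.64).

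Psmb9, Tap1, Psmb8 and Tap2 follow each other on chromosome 17 in RefSeq's gene order, with no other protein-coding gene between them. The pair that rose, Psmb9 and Tap1, is divergent: the starts lie 225 bases apart on opposite strands, and 275 bases are common to the windows of 300 that RefSeq gives around them. The 250 bases before the Tap1 start on GRCm38.p6 (chr17:34187306-34187555, plus strand) are shown because they hold the upstream side of both risen genes. Capitals mark a CCAAT match and a GC box match (GGGCGG), each searched on both strands.
Tap1 and Psmb9: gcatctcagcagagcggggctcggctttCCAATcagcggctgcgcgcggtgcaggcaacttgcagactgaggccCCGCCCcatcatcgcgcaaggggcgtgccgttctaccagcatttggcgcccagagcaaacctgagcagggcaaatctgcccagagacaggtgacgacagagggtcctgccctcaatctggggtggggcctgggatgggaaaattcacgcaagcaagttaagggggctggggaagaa
The CCAAT match begins 222 bases before the Tap1 start, and the GC box match 176 bases before it. Counted on the other strand, the same letters lie 8 and 55 bases before the Psmb9 start. CCAAT was found in 33.8% and GGGCGG in 32.7% of the 32851 windows of 250 bases in the table, so both are common. Neither the interferon response element searched as GAAANNGAAA nor the gamma interferon activation site searched as TTCNNNGAA was found in this window, and they occur in 2.98% and 7.02% of all windows. A match is a description of letters, not of a bound site.

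The class I molecule itself had lower means with the mimic, and none of its 3 genes passed the test. H2-K1, a classical heavy chain (cluster 10450075), had log2 values of 8.41, 8.39 and 8.36 on the control arrays and 8.25, 8.12 and 8.11 on the mimic arrays. All mimic values lay below all control values. The log2 fold change was -0.23 ± 0.06 (SE), with a 95% interval from -0.37 to -0.08 before adjustment and a limma adjusted p = 0.0502, just short of the threshold. It passed in 7 of 13 alternative fits, with adjusted p from 0.0167 to 0.174 in limma over all 13. The authors' deposited table has 13 probe sets for this gene, of which 10 had ratios below 1 and 4 of these a p-value under 0.05.

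H2-D1, the other classical heavy chain read here (cluster 10444780), had log2 values of 8.37, 8.35 and 8.37 with the control and 8.33, 8.04 and 8.22 with the mimic. The control arrays were tightly grouped, and mimic replicate 1 lay just under them. Its log2 fold change was -0.16, with a 95% interval from -0.34 to 0.01 (limma adjusted p = 0.24). Each of its 7 exon-level probe sets had a ratio below 1 in the authors' deposited table, and 1 of them a p-value under 0.05.

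B2m, the light chain that every class I heavy chain needs (cluster 10475414), had log2 values of 12.75, 12.55 and 12.61 with the control and 12.35, 12.52 and 12.57 with the mimic. The groups overlapped, and the lowest value was that of mimic replicate 1. The log2 fold change was -0.15, with a 95% interval from -0.34 to 0.03 (limma adjusted p = 0.299). The 5 probe sets of B2m in the authors' deposited table were divided, 2 with ratios above 1 and 3 below. The ratios ran from 0.893 to 1.05 with a median of 0.994, and 0 had a p-value under 0.05.

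BALB/c mice carry the d haplotype of the MHC, whereas the reference mouse strain C57BL/6J carries the b haplotype, and the class I genes are among the most variable between them. The sources used here do not name the strain behind the probes, and the part of mismatched probes in the values of H2-K1 and H2-D1 was not tested. The 2 genes are also close relatives, so that their probe sets may read more than 1 class I gene. Their upstream sequences show the kinship. In C57BL/6J the 250 bases before an annotated start align over 177 columns, of which 161 are identical (91%). The windows on GRCm38.p6 are given for H2-K1 (chr17:34000348-34000597, minus strand) and H2-D1 (chr17:35262844-35263093, plus strand), the pair of heavy chains with lower means. A further H2-K1 start is annotated close by and is not shown. Capitals mark the NF-kappaB site of class I genes (GGGGATTCCCC) and CCAAT, each on either strand.
H2-K1: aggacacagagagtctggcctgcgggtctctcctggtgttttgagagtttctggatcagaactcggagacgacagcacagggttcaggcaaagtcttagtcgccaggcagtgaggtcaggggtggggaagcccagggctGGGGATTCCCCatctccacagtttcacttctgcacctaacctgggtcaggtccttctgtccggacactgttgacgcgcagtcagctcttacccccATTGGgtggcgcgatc
H2-D1: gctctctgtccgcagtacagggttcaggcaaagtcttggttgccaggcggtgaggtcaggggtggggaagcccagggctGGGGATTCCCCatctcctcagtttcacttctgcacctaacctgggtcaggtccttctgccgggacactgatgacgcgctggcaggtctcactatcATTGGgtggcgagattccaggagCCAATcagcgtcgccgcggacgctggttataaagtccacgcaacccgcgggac
The letters GGGGATTCCCC begin 111 bases before this H2-K1 start and 171 bases before the H2-D1 start. This exact string was taken from the H2-D1 window after the windows had been read, so its match there was fixed in advance. It occurs in 10 of the 32851 windows (0.0304%), those of H2-K1 and H2-D1 among them. The broader NF-kappaB consensus, whose matches here overlap that string, occurs in 7.25% of windows and in those of 4 of the 8 antigen presentation genes searched: H2-K1, H2-D1, B2m and Ifi30. GAAANNGAAA was found in the window of B2m alone among those 8 and TTCNNNGAA in that of Psmb8 alone. Other forms of these interferon elements were not searched, so a window without a match may still hold one.

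**Figure D2:**
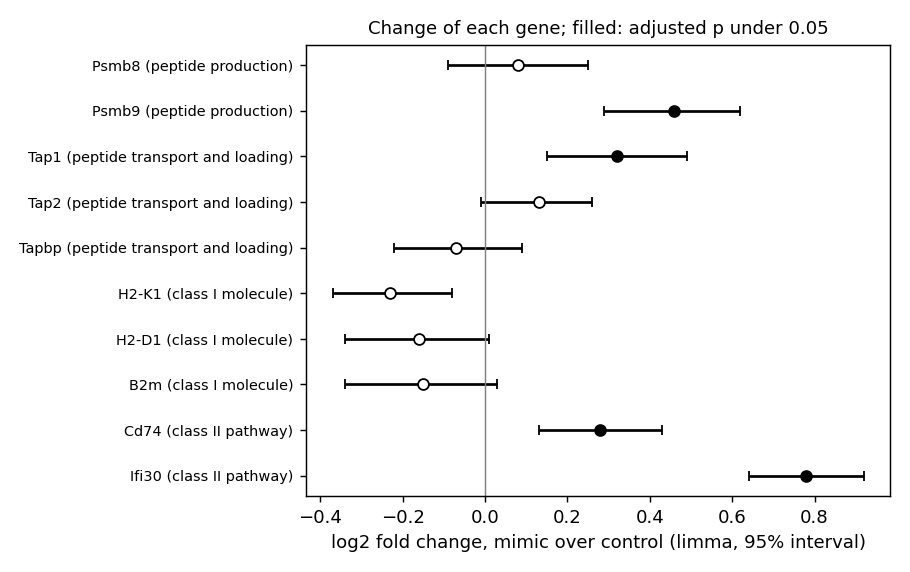
Log2 fold change, mimic over control (x axis), of each of the 10 genes (y axis, with its role) from limma, with 95% intervals before adjustment; filled points passed the adjusted threshold. Ifi30 at 0.78, Psmb9 at 0.46, Tap1 at 0.32 and Cd74 at 0.28 are filled, and the 3 genes of the class I molecule lie left of 0.

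Both genes of the class II pathway rose, and Ifi30 did so the most of the 10. Ifi30, known as GILT (cluster 10579347), reduces disulphide bonds of proteins in lysosomes. Its log2 values were 10.99, 10.94 and 11.04 on the control arrays and 11.80, 11.79 and 11.72 on the mimic arrays. The distance between the groups was far larger than the spread within either. The mean went from 10.99 ± 0.048 to 11.77 ± 0.0431 (SD, n = 3), a rise of 1.72-fold. The limma fit put the log2 change at 0.78 ± 0.06 (SE), with an adjusted p of 0.000112. By the size of its change it ranked 133 among the 21124 genes. The authors' deposited table lists 8 probe sets for it, and every one was higher with a p-value under 0.05, at ratios from 1.56 to 2.41.

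Cd74, the invariant chain (cluster 10456005), had log2 values of 7.56, 7.48 and 7.54 with the control and 7.78, 7.75 and 7.91 with the mimic. All mimic arrays were above all control arrays. The mean went from 7.53 ± 0.0408 to 7.81 ± 0.0846 (SD of 3 arrays; limma adjusted p = 0.024), a rise of 1.22-fold. The call was lost without control replicate 2, control replicate 3 or mimic replicate 3, where the limma adjusted p was 0.0712, 0.0906 and 0.103. Of its 12 probe sets, 10 had a ratio above 1 in the authors' deposited table, and 2 of these a p-value under 0.05.

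**Figure D3:**
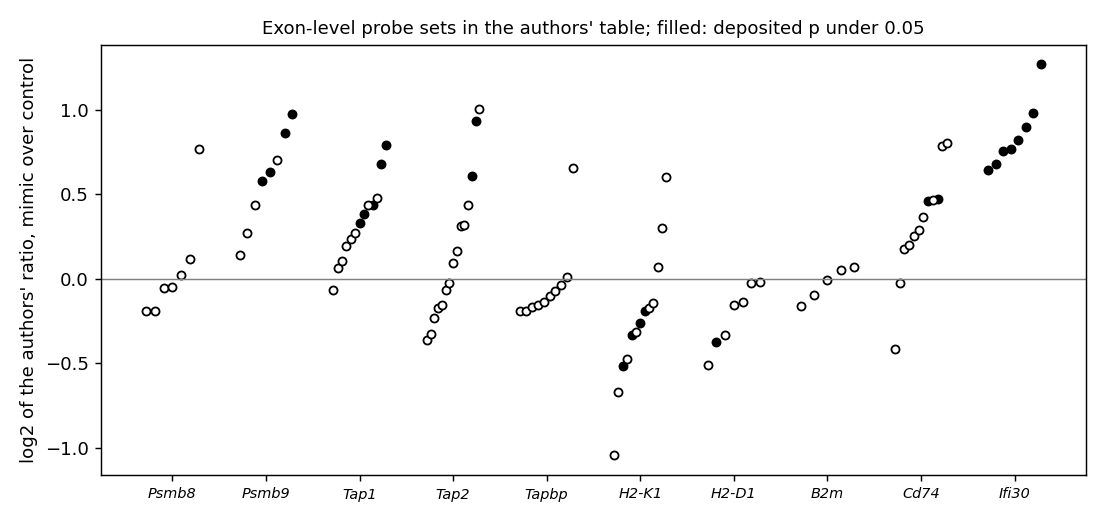
Log2 of the ratio, mimic over control, in the authors' deposited table (y axis) for each exon-level probe set of the 10 genes (x axis), in rising order within a gene; filled points have a deposited p-value under 0.05. All 8 probe sets of Ifi30 are filled and above 0, all 7 of H2-D1 lie below 0, and those of Tap2 spread on both sides.

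Class II chains were not among the changed genes. Of 7 measured genes for class II chains and their peptide exchange, none was called by limma, beside 11.7% of all genes. None had an unadjusted p under 0.05 either (0 of 7 in both), and the median log2 fold change was 0.02. On 7 genes, 0 calls is near that share. The chain genes H2-Ab1 and H2-Eb1 had mean log2 values of 5.87 and 6.76 with the control and 5.94 and 6.80 with the mimic. H2-Eb2 and H2-Oa, the latter a chain of the modulator that restrains peptide exchange, had log2 fold changes of 0.09 and -0.11. With the exception of H2-DMa, at 8.07 and 8.08, the class II genes measured had means under the median of gene means, and no detection call came with the arrays. Of 9 endosomal proteases and their inhibitors, 0 were called by limma, again beside 11.7% of all genes. At an unadjusted limma p under 0.05, 1 was higher and 1 lower. The log2 fold change was -0.20 for Ctsd, cathepsin D, and 0.19 for Lgmn, a protease that cuts after asparagine. Those for Cstb, an inhibitor of cathepsins, and Ctsh were 0.09 and -0.09.

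Of 19 measured class I and class I-like heavy chains beyond H2-K1 and H2-D1, 1 rose and 1 fell, close to the 6.09% and 5.63% of all genes called higher and lower. Their median log2 fold change was -0.01. H2-M3, which presents formylated peptides of bacteria and mitochondria, went from 8.78 ± 0.0604 to 9.11 ± 0.0652 (SD of 3 arrays; limma adjusted p = 0.0108). Fcgrt, the chain of the neonatal Fc receptor that pairs with B2m but binds antibodies, went from 9.69 ± 0.0652 to 9.26 ± 0.176 (SD of 3 arrays; limma adjusted p = 0.0139), and this call was lost without control replicate 3. H2-T22 and H2-Q4 had log2 fold changes of -0.25 and -0.29 and missed the threshold (limma adjusted p = 0.0542 and 0.0636). The list also held 4 symbols with no cluster of their own here, H2-L, H2-Q7, H2-T23 and H2-Bl.

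Of 9 genes of peptide loading and trimming in the endoplasmic reticulum, only 1 was called, beside 11.7% of all genes. This was Canx, the chaperone calnexin that holds new heavy chains. It rose by a log2 of 0.25 (limma adjusted p = 0.0224) and lost the call without control replicate 2, control replicate 3, mimic replicate 2 or mimic replicate 3. Hspa5, Sec61b and Calr, the last of them calreticulin of the loading complex, had log2 fold changes of -0.12, 0.14 and -0.08. Among 8 partners and activators of the immunoproteasome, 0 rose, none of them at an unadjusted limma p under 0.05 either, and 2 fell. Over all genes 6.09% rose and 5.63% fell. Psme2, a subunit of the PA28 activator, had a log2 fold change of -0.25 and Nrd1, a metalloprotease, of -0.30 (limma adjusted p = 0.0281 and 0.0115). The fall of Psme2 was not called with any 1 array left out, and that of Nrd1 was not called without control replicate 3. Psmb10, the third catalytic subunit of the immunoproteasome, had a log2 fold change of 0.11, and Pomp, which helps to assemble it, of 0.08. Of 13 standard core subunits 0 were called by limma, beside 11.7% of all genes. All 13 were as bright as the median gene or brighter, and 19.2% of such genes were called. Of these subunits 1 was lower at an unadjusted limma p under 0.05, and the median log2 fold change was -0.05. The log2 fold changes of Psma3, Psmb2, Psmb4 and Psma7 were -0.16, -0.14, -0.12 and -0.09. The standard catalytic counterparts Psmb5, Psmb6 and Psmb7, named after their values were seen, had -0.05, 0.03 and -0.02.

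Regulators of these genes changed in both directions. Of 18 measured transcription factors that act on MHC genes, 2 rose and 5 fell, beside 6.09% and 5.63% of all genes. Stat2, which carries the type I interferon signal to the nucleus, had a log2 fold change of -0.59 (limma adjusted p = 0.000425), and Irf7, itself induced by type I interferon, of -0.43. Nfya, a subunit of the factor that binds CCAAT, rose by a log2 of 0.41 (limma adjusted p = 0.00612). Further calls, named after their values were seen, were Irf1 at 0.34, Irf9 at -0.33 and Nfyc at -0.29. Irf1, a factor known to bind promoters of Tap1 and Psmb9, lost its call when control replicate 1 or 3, or any mimic array, was left out. Its call was also lost in the mean of its clusters and with replicate number as a block. Nfyc lost its call without control replicate 2 or 3 or mimic replicate 1 or 2. It also lost it in the mean of its clusters and with replicate number as a block. Irf9 lost its call without control replicate 3 or mimic replicate 2 or 3. Nlrc5 and Ciita, the coactivators of class I and class II genes, had log2 fold changes of -0.02 and 0.08 (limma adjusted p = 0.919 and 0.626). With 1 array left out, 3 to 6 of these factors fell: 3 without control replicate 3 or mimic replicate 2, and 6 without control replicate 1. The number that rose was 1 in every such fit but that without control replicate 2, where it was 2.

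Among 9 interferon receptors, kinases and feedback inhibitors 1 was called, beside 11.7% of all genes. This was Ifngr2, the signalling chain of the gamma interferon receptor. It went from 10.83 ± 0.0275 to 11.29 ± 0.0162 (SD of 3 arrays; limma adjusted p = 0.00105). The ligand-binding chain Ifngr1 and the type I receptor chains Ifnar1 and Ifnar2 had log2 fold changes of -0.14, 0.18 and -0.20, and the kinase gene Jak2 of -0.20.

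Interferon-induced genes of antiviral defence were the closest group for comparison. Of the 29 measured, 24 fell and 0 rose in limma (0 also at an unadjusted p under 0.05), beside 5.63% and 6.09% of all genes. Their median log2 fold change was -0.57, while 4 of the 10 antigen presentation genes rose, with a median of 0.10. The difference between the groups was not tested, as both were chosen with results known. Iigp1 and Gbp2, antimicrobial GTPases induced by gamma interferon and named after their values were seen, had log2 fold changes of -0.78 and -0.37, the latter not called without control or mimic replicate 2 or 3. The smallest adjusted p on that list were those of Ifit1, Ifit3, Oasl2 and Usp18, whose log2 fold changes were -1.76, -1.40, -0.88 and -0.81.

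**Figure D4:**
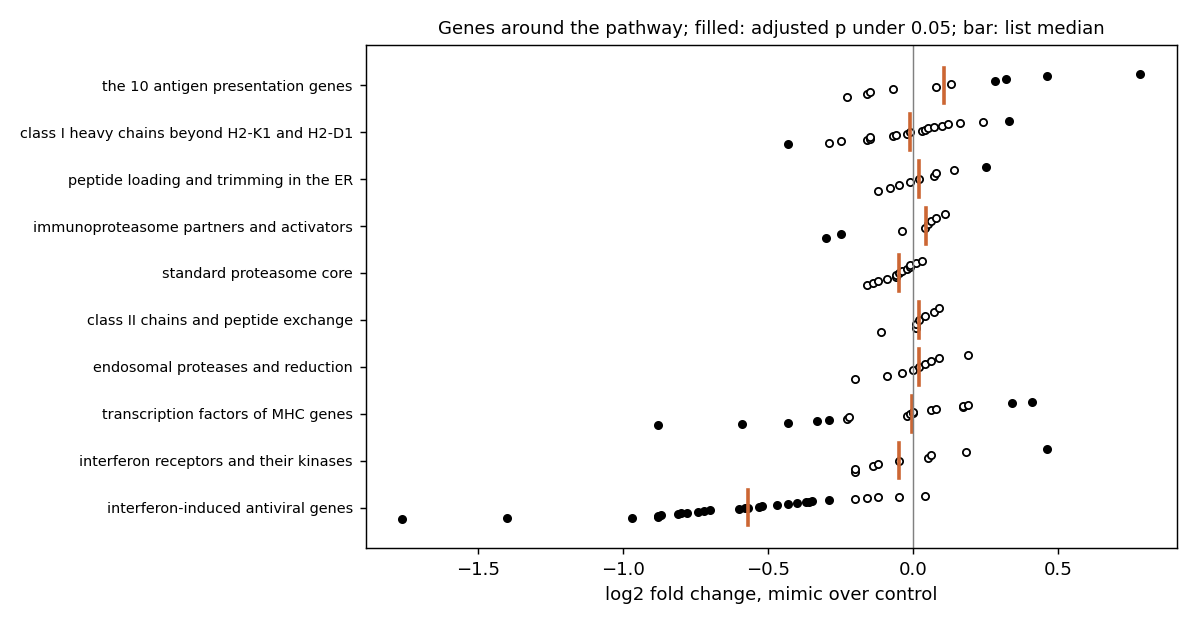
Log2 fold change, mimic over control (x axis), of the 10 genes and of the genes of 9 lists around them (y axis); each point is a gene, filled where it passed the adjusted threshold, and the bar is the list median. The medians lie between -0.05 and 0.10 except that of the antiviral genes at -0.57.

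Professional antigen presenting cells make many of the same genes, so their markers were read on the same arrays. In bulk RNA, a change in the number of cells of a type and a change of RNA per cell cannot be told apart. Of 8 macrophage, 5 dendritic cell and 5 B cell markers, none was called by limma (0 in each list, also at an unadjusted p under 0.05). Over all genes 6.09% were called higher and 5.63% lower, together 11.7%. Genes as bright as the median gene or brighter were called more often, in 19.2%. Of the macrophage markers 2 were that bright, and of the dendritic cell and B cell markers 0. On so few and mostly dim markers, 0 calls cannot show whether such cells changed. The mean log2 value over the macrophage list was 6.26 to 6.33 on the control arrays and 6.26 to 6.32 on the mimic arrays. For the dendritic cell list it was 5.85 to 6.03 and 5.90 to 6.02, and for the B cell list 5.83 to 6.02 and 5.84 to 5.89. All of these were under the array medians over all clusters, which were 6.94 to 7.01. Of 5 general leukocyte markers 1, Cd53, fell, and of 7 T and NK cell markers 1, Nkg7, fell, with list means of 6.21 to 6.26 against 6.13 to 6.19 and of 5.88 to 6.07 against 5.82 to 5.98. The call of Cd53 was lost without control replicate 2 or 3 or mimic replicate 1 or 2, and that of Nkg7 without control replicate 3 or mimic replicate 1 or 3. The leukocyte marker Ptprc (CD45) had a mean of 5.36 with the control and 5.38 with the mimic. The highest macrophage markers, Cd68 and Cd14, which other cells also make, stood at 8.14 and 8.06 with the control and 8.30 and 8.01 with the mimic. An array value has no true zero, so none of these markers can be called absent.

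The labelled origin was checked in the same way. Markers of the ovarian surface epithelium and mesothelium stood above the array medians as a list, at 9.46 to 9.50 with the control and 9.22 to 9.34 with the mimic. Of these 9 markers 3 rose and 4 fell, where 6.09% of all genes were called higher and 5.63% lower. The rise of Krt18 was lost without any 1 of the arrays, which left 2 risen. Msln and Krt18, with the highest means of the list, went from 11.05 to 11.10 and from 10.90 to 11.17, and Upk3b, named after its values were seen, from 11.48 to 10.08. Fibroblast markers had list means of 9.59 to 9.64 and 9.51 to 9.56 (1 of 8 risen, 2 fallen), with Vim at 12.92 and 12.91 and Dcn at 12.39 and 12.09. With 1 array left out, 0 or 1 of the fibroblast markers rose and 0 to 2 fell, with 0 in either direction without control replicate 3. Of these fits, the rise of Pdgfra was called in that without control replicate 2 alone, and the fall of Lum in none of the 6, both named after their values were seen. Of 8 granulosa cell markers 2 fell, and the list means were 7.13 to 7.26 and 6.93 to 7.04. Inhba, at 11.01 and 10.89, and Inhbb, at 8.07 and 7.43, were its brightest, while Foxl2 stood at 6.78 and 6.55. Of 5 endothelial markers 1, Tek, fell, with list means of 5.92 to 6.03 and 5.82 to 5.97. The part of these shifts in the changes of the antigen presentation genes was not tested.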

How the data were processed

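RNA of the 6 samples was amplified, labelled with biotin and hybridised, per the labels' protocols. The deposited per-array values are log2 values of 35556 transcript clusters (2.73 to 13.91), summarised and normalized by the authors; the log2 scale was read from their range. The submitters' processing notes list Partek, RMA, MAS5 and Affymetrix Expression Console without saying which did what. The authors' deposited table gives, for 241419 exon-level probe sets, a ratio, a p-value without adjustment and further scores (a signed fold, F, sums of squares), per the file headers. The ratio of its error to its model degrees of freedom is 1.5, and its contrast has 0.833 times the variance of the error, where 3 against 3 arrays give 0.667, so its arrays may not be the same 6.

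Clusters were named from the probe sets whose IDs lie between their own ID and the next. Over 17009 clusters with several probe sets, the log2 changes in the 2 tables had r = 0.936 across genes, and with 0.096 for the next cluster. Symbols were updated through RefSeq (GRCm38.p6) accessions, symbols and synonyms; 24115 clusters had 1 symbol, 834 several and 10607 none. The brightest cluster of a gene was kept, which left 21124 genes. The test was limma 3.58.1 (R 4.3.3; lmFit, eBayes), two-sided, with Benjamini-Hochberg adjustment over all genes and no block or filter. On simulated data of 21124 genes it recovered 99% of 100 genes changed by a log2 of 0.5 and 100% of 100 changed by 1, with 16 false among 215 calls. Smaller changes, such as most of those in the 10 genes, were not simulated, and the simulated noise held no array effects. The members and lists were chosen with earlier results of these data known. The rule for named genes took the 10 genes, up to 4 of each pathway list with the smallest adjusted p and up to 2 of each marker list with the highest mean. Some genes that this rule would name are not reported here. RefSeq promoter windows, taken by symbol, were searched for 8 of the 10 genes. Tap2 had no window, and Cd74 was left out of the search. Alternatives were quantile normalization, median centring, filters on dim genes, the replicate block, the mean of a gene's clusters, a trended prior and each array left out. The number of arrays limits the precision.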

Additional observations from a re-analysis of the deposited data

How the results depend on the processing

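The 4 rises and the direction of all 10 antigen presentation genes were recomputed under 13 alternatives. All 10 kept their sign wherever they were tested, but much of this was fixed in advance. For groups that do not overlap, the sign cannot change when an array is left out. The filters on dim genes, the replicate block, the trended prior and the mean of clusters left these genes' log2 fold changes as they were. These fits could therefore alter only the adjusted p. Ifi30 and Psmb9 passed in 13 of 13, with limma adjusted p up to 0.00154 and 0.0221, Cd74 in 9 and Tap1 in 8. H2-K1, not called in the fit reported, passed as lower in 7: quantile normalization, median centring, both filters on dim genes, the mean of a gene's clusters, the trended prior and without mimic replicate 1. Psmb8, Tap2, Tapbp, H2-D1 and B2m passed in 0. With each array left out in turn, 2 to 4 of the 10 were called: 2 without control replicate 2 or mimic replicate 3, where Ifi30 and Psmb9 remained. The count over all genes, 2476, was then 1280 to 2057, with 1280 without control replicate 3 and 1547 without mimic replicate 3. Psmb8 was not tested under the filter at the median of gene means. The cause of these losses was not tested.

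Replicate numbers are shared by both groups, but same-numbered arrays did not deviate together (r = -0.0547, -0.284 and 0.0382 across genes), so the numbers were not taken to pair the arrays. Differently numbered arrays of the 2 groups had r from -0.299 to 0.331. Whether arrays share an effect across the groups under other numbers was not tested. With the replicate block, 2 of the 10 genes were called and 1727 of all genes. Tap1 and Cd74 then had limma adjusted p of 0.0561 and 0.0546. Of the other genes named, Irf1, Nfyc, Canx, Psme2, Gbp2, Krt18, Pdgfra and Lum also lost their calls with the block.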

Other observations

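The genes next to the 10 on the chromosome gave a view of whether a change reached beyond a single gene. There were 13 measured protein-coding neighbours in the RefSeq gene order that are no members. Of these, 0 were called by limma, beside 11.7% of all genes. On so few genes that count cannot show whether changes stop at a single gene. An unadjusted limma p under 0.05 was found for 1 of the neighbours. That 1 was Pik3r2, a regulatory subunit of phosphoinositide 3-kinase next to Ifi30, with a log2 fold change of 0.23 (limma adjusted p = 0.0528). On the other side of Ifi30, Mpv17l2 had a log2 fold change of -0.05. Rps14 and Tcof1, on either side of Cd74, had log2 fold changes of 0.01 and 0.06. H2-Ob, beyond Tap2, had one of 0.01. These neighbours were chosen after the values of the 10 genes were known.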
